A study of Mus musculus with 8 samples.

Results

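The AP-1 transcription factor family was followed in mouse splenic lymphoma cells through 8 genes, the Fos relatives Fos, Fosb and Fosl2, the Jun relatives Jun, Junb and Jund, and the related factors Atf3 and Batf. They were picked by gene name as members of the family, with earlier results of these data known, and stand for 8 of the 25477 loci in the deposited expression table. The cells were lymphocytes from mouse spleens that carried the B cell surface marker B220 and the reporter GFP. Of the 8 libraries, 4 came from cells with an shRNA against Crebbp (shCrebbp) and 4 from cells with a scramble shRNA; genotype, strain, age, vector and driver of the lymphoma are not given in the sources used here. The library names carry a prefix, AO229 (shCrebbp libraries 3 and 4), AO228 (shCrebbp libraries 1 and 2) or AO227 (scramble libraries 1 to 4). The labels do not say what a prefix stands for, and no prefix holds libraries of both groups, so prefix and shRNA cannot be told apart. Nothing in the labels ties a library to a separate mouse or culture, so p-values measure only the spread between these libraries, part of which may be technical.

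AP-1 proteins bind DNA in pairs through a basic region and a leucine zipper (bZIP). Fos proteins need a Jun partner, whereas Jun proteins can also pair with each other, and the pairs bind the AP-1 site TGANTCA or the closely related cAMP response element (CRE). Fos, Fosb, Jun, Junb and Atf3 are immediate early genes, switched on within minutes by growth factor, antigen receptor or stress signals, and Batf pairs with Jun proteins and with IRF factors in activated lymphocytes. CREBBP, the target of the shRNA, is a histone acetyltransferase named for its binding to CREB, the factor that occupies CREs.

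The promoters of Atf3, Junb, Fos and Jun are shown because Atf3 and Junb differed most among the well expressed members between the name prefixes, while Fos and Jun are the founding genes of the family. Each is the 250 bases before the RefSeq transcription start (GRCm38.p6, the same assembly as mm10), printed from 5′ to 3′ in the direction of transcription. Capitals mark matches to the searched motifs.
Atf3, chr1:191183334-191183583, minus strand: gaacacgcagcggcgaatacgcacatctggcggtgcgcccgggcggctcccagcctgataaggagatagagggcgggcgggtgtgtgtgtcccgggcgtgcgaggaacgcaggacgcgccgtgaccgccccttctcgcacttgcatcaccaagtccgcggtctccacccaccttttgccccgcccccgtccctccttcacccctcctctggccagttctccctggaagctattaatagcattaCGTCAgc
Junb, chr8:84978749-84978998, minus strand: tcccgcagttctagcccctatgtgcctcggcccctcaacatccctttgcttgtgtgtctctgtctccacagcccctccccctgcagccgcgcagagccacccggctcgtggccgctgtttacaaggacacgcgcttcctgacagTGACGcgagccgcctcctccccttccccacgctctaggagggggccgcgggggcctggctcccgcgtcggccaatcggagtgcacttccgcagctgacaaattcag
Fos, chr12:85473640-85473889, plus strand: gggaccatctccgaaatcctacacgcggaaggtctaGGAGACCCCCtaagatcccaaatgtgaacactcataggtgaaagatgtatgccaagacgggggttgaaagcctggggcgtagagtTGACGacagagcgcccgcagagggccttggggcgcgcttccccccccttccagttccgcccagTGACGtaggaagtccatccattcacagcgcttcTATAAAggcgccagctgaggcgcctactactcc
Jun, chr4:95052223-95052472, minus strand: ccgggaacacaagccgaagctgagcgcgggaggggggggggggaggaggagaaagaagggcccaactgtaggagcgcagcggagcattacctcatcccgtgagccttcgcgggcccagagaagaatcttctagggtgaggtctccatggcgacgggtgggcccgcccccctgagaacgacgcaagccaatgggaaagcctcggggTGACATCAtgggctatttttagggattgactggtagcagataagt
The Fos window held 2 copies of TGACG, the core of the CRE, from 129 to 125 and from 66 to 62 bases before the start, and a TATA box (TATAAA) 33 to 28 bases before it. Its other match, GGAGACCCCC, is of the NF-kappaB type. The Jun window held the CRE-like sequence TGACATCA 45 to 38 bases before the start, a sequence through which Jun and ATF2 act on the Jun promoter in human cells. The Junb window held TGACG 106 to 102 bases before the start, and the Atf3 window held the same core on the other strand, CGTCA, 7 to 3 bases before the start.

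Both strands were searched in all 8 member promoters, each of which had a RefSeq entry, and in 32851 mouse promoters of the same length. The RefSeq start differed most from that of the gene annotation for Atf3 (191183333 against 191218039, minus strand) and Jund (70697739 against 70698949). Their matches hold for the RefSeq start only. TGACG, which a full CRE also contains, occurred in 5 of the 8 members and in 17.8% of all promoters. TGACNTCA occurred in 1 member and in 7.49% of all promoters, and the AP-1 site TGANTCA in 0 members and in 6.75% of all. The EGR site GCGNGGGCG occurred in 2 members, Fosb and Fosl2, and in 4.7% of all promoters, whereas the NF-kappaB site occurred in 3 members and in 7.25%. TATAAA occurred in 1 member and in 12.4%, and the CArG box bound by serum response factor in 0 members and in 1.47%. The G and C content had a median of 52.4% over all promoters. Among the member windows Batf (46.4%) and Jund (47.6%) lay below that median, and the others between 58.4% (Fos) and 68.8% (Fosb). The shares over all promoters were not matched for this content. These are matches of letters and not measured binding. Sequence farther upstream than these windows was not searched. A count of 0, as for the CArG box, therefore does not show that a gene lacks the site.

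The targeted gene was measured first. Crebbp had 23.4 and 19.3 FPKM (fragments scaled by transcript length and by the mapped fragments of the library) in the AO229 libraries and 18.9 and 26.6 FPKM in the AO228 libraries, against 33.7, 22.9, 21.3 and 25.8 FPKM in scramble libraries 1 to 4. The groups overlapped, and the difference in log2(FPKM + 1) was -0.22 (SE 0.18, limma adjusted p = 0.915). Ep300, its close relative, had 16.9 to 26.0 FPKM in shCrebbp and 14.8 to 21.6 FPKM in scramble libraries. The table thus shows a lower mean Crebbp level in shCrebbp libraries but no difference beyond the spread between libraries.

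B cell markers were high in every library, with a summed level of 2675 to 3374 FPKM over 8 genes in shCrebbp and 2512 to 3014 FPKM in scramble libraries. The summed T cell markers (12 genes with a locus) reached 196 to 286 FPKM in shCrebbp and 169 to 238 FPKM in scramble libraries. Nearly all of this was Cd2 and Lck. Cd3g had 2.25 to 8.27 FPKM and Cd3d 0.187 to 4.02 FPKM over the 8 libraries, while Cd3e stayed at or below 1.2 FPKM. Macrophage and monocyte markers (15 genes with a locus) summed to 228 to 381 FPKM in shCrebbp and 309 to 445 FPKM in scramble libraries. Most of this was Cd68. Over the 8 libraries Ly6c2 had 4.16 to 26.3 FPKM, Emr1 0.996 to 7.84 FPKM and Lyz2 0 to 6.82 FPKM. The other markers of this list stayed at or below 1.85 FPKM, among them Cd14 and Csf1r at or below 1.12 FPKM. Neutrophil markers summed to 0.0598 to 4.74 FPKM in shCrebbp and 1.05 to 4.44 FPKM in scramble libraries, with Elane at 0 throughout, and erythroid markers to 22.8 to 47.6 and 13.1 to 40.3 FPKM in shCrebbp and scramble. Scramble 2 stood apart from the other 7 libraries, with correlations of log2 values of 0.775 to 0.836 to them, against 0.840 to 0.934 among the others. Read depth is not given by the table, but 33.2% to 46.0% of loci were listed at 0 in shCrebbp and 42.4% to 51.8% in scramble libraries.

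On the FPKM scale, which is per length, the order of mean levels in shCrebbp cells was Fos, Junb, Fosb, Jund, Jun, Atf3, Batf and Fosl2. In scramble cells it was the same except that Jun stood before Jund. Fos, Junb and Fosb were the 3 highest members in every library, in that order. Jun and Jund were not separable: Jund was above Jun in 1 of 4 shCrebbp libraries, and Jun above Jund in 3 of 4 scramble libraries. Atf3 lay below Jun in all libraries except shCrebbp 4, where it had 291 FPKM and Jun 267 FPKM. Among the 11417 loci whose mean reached 1 FPKM, Fos ranked 131 by its mean over the 8 libraries, Junb 159, Fosb 189, Jun 222, Jund 234 and Atf3 404. Batf ranked 3628 and Fosl2 7893. The mean of each of the other 6 members was above that of at least 96.5% of the loci. A bulk level cannot tell fewer expressing cells from less RNA per cell.

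**Figure D1:**
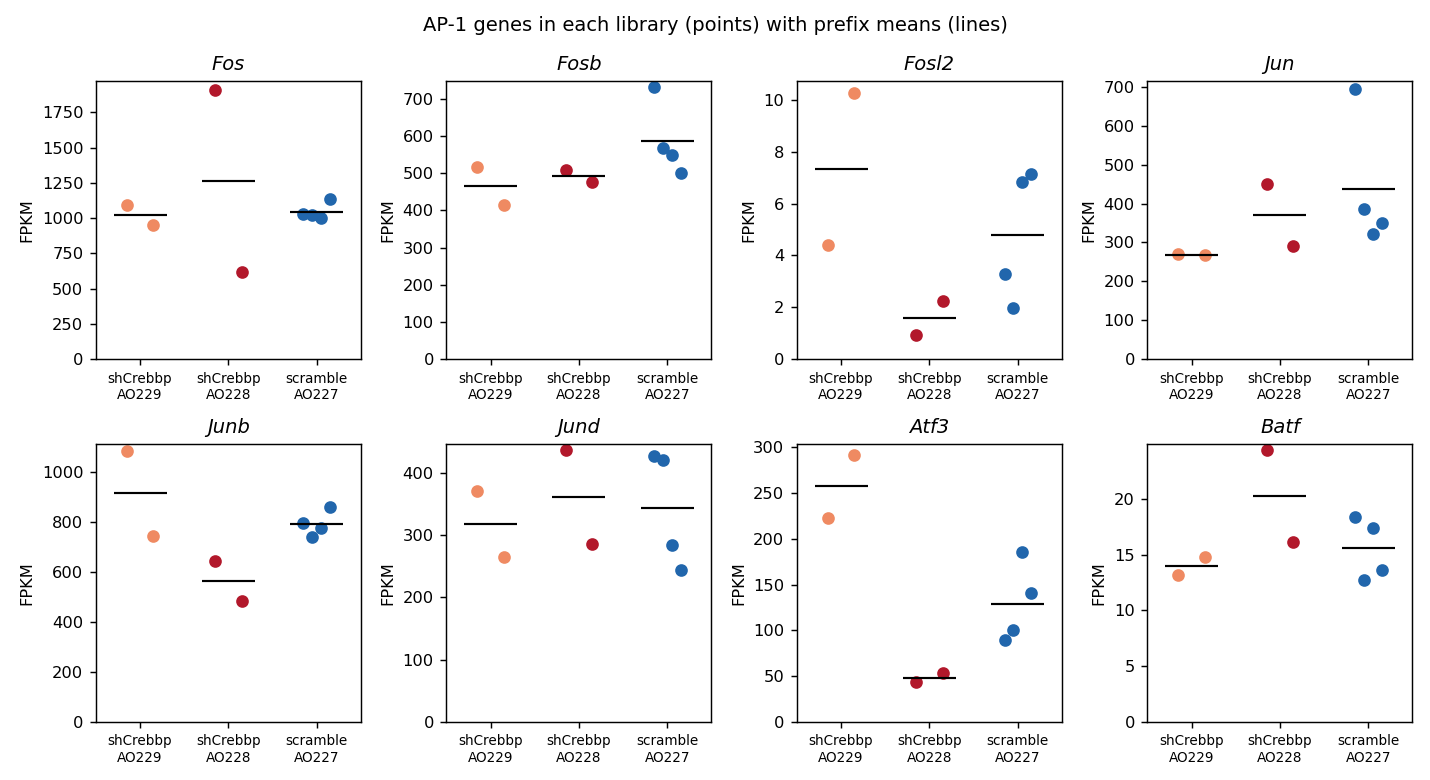
FPKM (linear axis from 0) of the 8 AP-1 genes in each library, by group and name prefix, with black lines at the prefix means. Atf3 lies at 223 and 291 FPKM in AO229, at 43.3 and 53.2 FPKM in AO228 and at 89.0 to 186 FPKM in scramble, whereas Fosb and Jund show no such split.

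Among the Fos relatives, Fos, the founding member, had 1093 and 949.6 FPKM in AO229 and 1908 and 614 FPKM in AO228, against 1027, 1025, 997 and 1138 FPKM in scramble libraries 1 to 4. The AO228 libraries were the highest and the lowest of all, and the 4 scramble libraries lay close together between them. Means were 1141 ± 549 FPKM in shCrebbp and 1047 ± 62.3 FPKM in scramble (SD, n = 4 each), a log2 difference of 0.01 (95% interval -0.70 to 0.71, limma adjusted p = 0.997). The coefficient of variation of Fos was 48.1% in shCrebbp and 5.96% in scramble. For comparison, 541 loci had a mean that reached 100 FPKM. Their median coefficient was 22.7% in shCrebbp (upper quartile 46.0%) and 17.8% in scramble (lower quartile 12.3%). As a description without a test, Fos was more even in scramble libraries than a typical abundant locus. It was less even in shCrebbp libraries, with a coefficient of 72.5% in AO228 and 9.90% in AO229 (n = 2 each).

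Fosb, a close relative with the same pairing rules, had 517 and 414 FPKM in AO229 and 508 and 477 FPKM in AO228, against 732, 567, 548 and 501 FPKM in scramble libraries. Of the shCrebbp libraries 2 lay above the lowest scramble library, and the other two below all scramble libraries. Fosb averaged 479 ± 46.8 FPKM in shCrebbp and 587 ± 101 FPKM in scramble (SD, n = 4 each), a log2 difference of -0.28 (95% interval -0.66 to 0.10, limma adjusted p = 0.915). An exact two-sided permutation test over all 70 divisions of the libraries gave p = 0.0857 for Fosb, where the smallest p it allows is 0.0286. The ratio of Fosb to Fos, which does not depend on the scaling of a library, was 0.474 and 0.436 in AO229 and 0.266 and 0.777 in AO228, against 0.713, 0.553, 0.550 and 0.441 in scramble libraries.

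Fosl2 (Fra-2), a Fos relative without a strong activation domain, was low, at 4.40 and 10.3 FPKM in AO229 and 0.920 and 2.22 FPKM in AO228, against 3.27, 1.97, 6.82 and 7.15 FPKM in scramble libraries. Both AO228 libraries lay under both AO229 libraries, and the scramble libraries spread over the gap. The log2 difference between shCrebbp and scramble was -0.28 (SE 0.55, limma adjusted p = 0.962), with a 95% interval of -1.51 to 0.96. A level 2-fold lower or 2-fold higher in shCrebbp cells lies within that interval, given the pseudocount of 1 added to these low values.

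Among the Jun relatives, Jun had 271 and 267 FPKM in AO229 and 451 and 291 FPKM in AO228, against 694, 386, 321 and 349 FPKM in scramble libraries. Scramble 1 was far above the rest, and 3 shCrebbp libraries lay below every scramble library. Jun averaged 320 ± 88.2 FPKM in shCrebbp and 437 ± 173 FPKM in scramble (SD, n = 4 each), the most negative log2 difference of the 8 members at -0.41 (95% interval -1.04 to 0.21, limma adjusted p = 0.915). The exact permutation test gave p = 0.229 for Jun. Jun made up 15.8% to 29.5% of the summed Jun family FPKM in shCrebbp libraries and 23.2% to 36.2% in scramble libraries.

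Junb, which can oppose Jun at some promoters and is abundant in B cells, had 1081 and 744 FPKM in AO229 and 644 and 481 FPKM in AO228, against 794, 737, 775 and 859.6 FPKM in scramble libraries. The AO228 libraries lay below all others, while shCrebbp 3 (AO229) lay above every scramble library and shCrebbp 4 within their range. Junb averaged 738 ± 253 FPKM in shCrebbp and 791 ± 51.3 FPKM in scramble (SD, n = 4 each), a log2 difference of -0.16 (95% interval -0.71 to 0.38, limma adjusted p = 0.950). Its coefficient of variation was 34.4% in shCrebbp and 6.49% in scramble. By the annotation, Rnaseh2a and Prdx2 overlap the Junb locus (mm10 chromosome 8, 84969469 to 84980276), so their reads may be shared. The same holds for Iqcn and Gm11175 at the Jund locus, Gm12703 and Junos at the Jun locus, and Gm26802 at the Fosb locus.

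Jund, the member least dependent on stimulation, had 370.1 and 264 FPKM in AO229 and 437 and 286 FPKM in AO228, against 427, 420.2, 284 and 243 FPKM in scramble libraries. High and low libraries occurred in each group and prefix alike. The Jund log2 difference between shCrebbp and scramble was -0.00 (95% interval -0.55 to 0.54, limma adjusted p = 0.998). A second Jund locus at the same coordinates held 1.77 to 4.91 FPKM and was left out. The ratio of the summed Fos to the summed Jun family was 0.937 and 1.08 in AO229 and 1.58 and 1.03 in AO228, against 0.920, 1.03, 1.13 and 1.13 in scramble libraries, so it lay near 1 in all but shCrebbp 1.

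Atf3, a stress-induced bZIP factor of the ATF group that represses or activates according to its partner, had 223 and 291 FPKM in AO229 and 43.3 and 53.2 FPKM in AO228, against 89.0, 100.2, 186 and 141 FPKM in scramble libraries 1 to 4. The AO229 libraries were above every scramble library and the AO228 libraries below every one. The mean over all shCrebbp libraries therefore joined opposite values, 153 ± 124 FPKM in shCrebbp and 129 ± 44.0 FPKM in scramble (SD, n = 4 each). The log2 difference of Atf3 was -0.15 (95% interval -1.52 to 1.21, limma adjusted p = 0.982). The ratio of Atf3 to Jun was 0.822 and 1.09 in AO229 and 0.0958 and 0.183 in AO228, against 0.128, 0.259, 0.580 and 0.403 in scramble libraries.

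Batf, needed for germinal centre and class switch responses, had 13.2 and 14.8 FPKM in AO229 and 24.4 and 16.2 FPKM in AO228, against 18.4, 12.8, 17.4 and 13.7 FPKM in scramble libraries. Only shCrebbp 1 lay above the scramble range. The log2 difference of Batf was 0.11 (95% interval -0.37 to 0.58, limma adjusted p = 0.959).

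Between shCrebbp and scramble, 0 of the 8 members passed a limma adjusted p of 0.05, against a background of 0.0% of the 11417 loci tested, and 0 had an unadjusted p under 0.05, against 5.02% of loci. Without scramble 2, the library that stood apart, 0 members passed as well. The smallest adjusted p of any locus in this comparison was 0.521. Of the members 6 had a lower and 2 a higher mean log2 value in shCrebbp cells, where 48.0% of all loci were lower, and their median log2 difference was -0.16 against 0.01 over all loci. The shCrebbp and scramble libraries overlapped for all 8 members, while 3.32% of loci did not overlap. The intervals exclude a 2-fold change in either direction for 5 members, Fos, Fosb, Junb, Jund and Batf. They include a 2-fold lower level for Jun, Fosl2 and Atf3, and also a 2-fold higher one for Atf3 and for Fosl2, whose low level the added pseudocount of 1 compresses on this scale. In the fit that gave each prefix its own coefficient, AO228 against scramble had a Junb interval of -1.02 to 0.01. That interval includes a 2-fold lower level. A p above the threshold does not show equal levels.

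**Figure D2:**
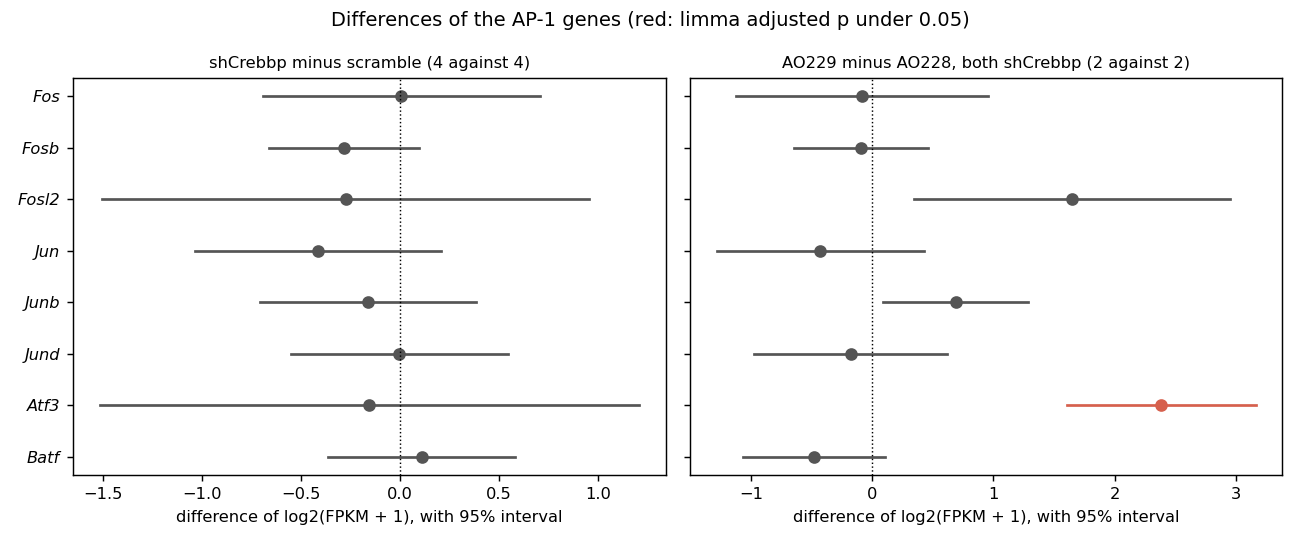
Difference of mean log2(FPKM + 1) for each AP-1 gene (points) with 95% intervals from limma (lines), for shCrebbp minus scramble on the left and AO229 minus AO228 on the right. All intervals on the left cross 0, and on the right Atf3 at 2.39 is the only difference past a limma adjusted p of 0.05 (red).

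Within shCrebbp, the libraries of the 2 prefixes were compared in a fit that took its spread from all 8 libraries. Atf3 was higher in AO229, at 257 ± 48.4 FPKM against 48.2 ± 7.02 FPKM in AO228 (SD, n = 2 each), a log2 difference of 2.39 (SE 0.34, 95% interval 1.61 to 3.16, limma adjusted p = 0.0305). It was 1 of 8 members past the threshold, against 1.28% of the 11417 loci and 0.666% in that direction. With 2 libraries a side the call was fragile: over 20 alternatives the log2 difference stayed between 2.19 and 2.85 but the adjusted p ran between 0.0152 and 0.209. It was lost without scramble 1 (0.0600), scramble 3 (0.0532), shCrebbp 1 (0.209), shCrebbp 2 (0.0717), shCrebbp 3 (0.185) or shCrebbp 4 (0.140), and it was kept without scramble 2, at 0.0192.

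Fosl2 and Junb were also higher in both AO229 than in both AO228 libraries. Fosl2 averaged 7.34 FPKM in AO229 and 1.57 FPKM in AO228, a log2 difference of 1.65 (SE 0.57, limma adjusted p = 0.196). Junb averaged 913 FPKM in AO229 and 563 FPKM in AO228, a log2 difference of 0.69 (SE 0.26, limma adjusted p = 0.237). With Atf3 they were the 3 members with an unadjusted p under 0.05 and the 3 whose prefixes did not overlap with AO229 higher, against 7.75% and 25.5% of all loci. Jun and Batf did not overlap with AO229 lower, where 25.4% of loci did the same, so 5 of 8 members were separated in either direction, against 50.9% of loci. For Jun the log2 difference was -0.43 (limma adjusted p = 0.653) and for Batf -0.48 (limma adjusted p = 0.403). Fos, Fosb and Jund overlapped, at log2 differences of -0.09, -0.09 and -0.18. In all 5 members were lower in AO229, where 49.1% of loci were, and the median over the 8 members was -0.09.

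The comparisons of each prefix with scramble share the scramble libraries. AO229 against scramble gave log2 differences of 1.04 for Atf3, 0.55 for Fosl2 and 0.18 for Junb, and AO228 against scramble gave -1.35, -1.10 and -0.50 for the same genes. Jun was at -0.63 in AO229 and -0.20 in AO228, and Fosb at -0.33 in AO229 and -0.24 in AO228. Of these the largest was Atf3 in AO228, with a limma adjusted p of 0.206. No member passed in either comparison, where 0.0175% of loci passed for AO229 and 0.0% for AO228. Against scramble, Atf3 was the 1 member with an unadjusted p under 0.05, in AO229 with a higher level (4.03% of loci) and in AO228 with a lower one (6.28%). In AO229, Atf3 lay above and Jun below all scramble libraries (11.1% and 11.3% of loci), and in AO228 Atf3 and Junb lay below them (9.36%). Junb made up 62.8% and 58.4% of the summed Jun family FPKM in AO229 and 42.0% and 45.5% in AO228, against 41.5%, 47.7%, 56.2% and 59.2% in scramble libraries.

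**Figure D3:**
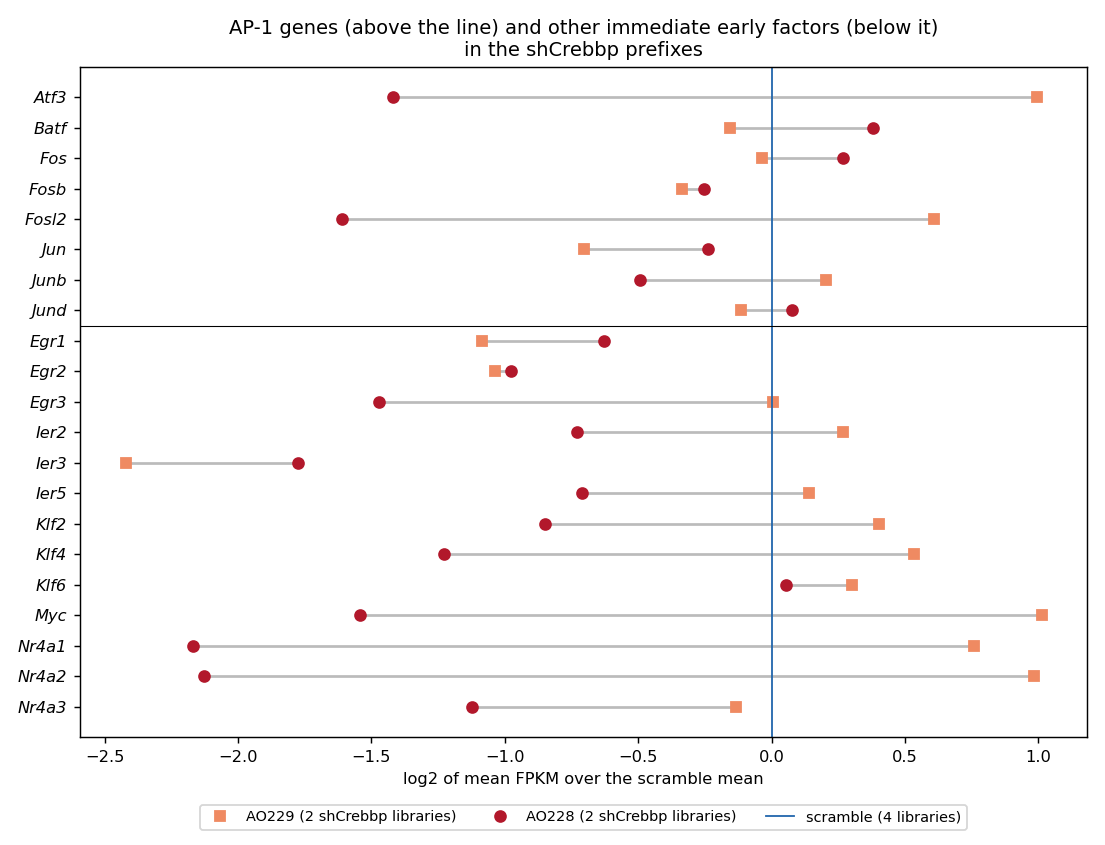
Log2 ratio of the mean FPKM of AO229 (squares) and AO228 (circles) to the scramble mean (line at 0) for the 8 AP-1 genes, above the horizontal line, and 13 other immediate early factors, below it. Atf3, Nr4a1, Nr4a2, Klf4 and Myc have AO229 to the right of 0 and AO228 to the left, Egr1, Egr2 and Ier3 have both prefixes to the left, and Fosb and Jund have both prefixes near each other.

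The other immediate early factors were listed as genes of rapid induction, like Fos and Jun. Induction was not measured here and need not hold for each of them in these cells. All 13 were tested, and 3 rose in AO229 relative to AO228, against 0.666% of all loci, while 0 fell. Nr4a1, an orphan nuclear receptor induced by antigen receptor signals, had 587 and 448 FPKM in AO229 and 40.5 and 95.4 FPKM in AO228, with 252, 219, 379 and 373 FPKM in scramble libraries. Its log2 difference between the prefixes was 3.02 (SE 0.42, limma adjusted p = 0.0305). Klf4, a zinc finger factor that restrains B cell proliferation, averaged 86.6 FPKM in AO229 and 25.5 FPKM in AO228 (1.73 on the log2 scale, limma adjusted p = 0.0374). Nr4a2 averaged 23.0 FPKM in AO229 and 2.66 FPKM in AO228 (2.77 on the log2 scale, limma adjusted p = 0.0434). These 3 genes, Atf3 and Myc, which was not called, had their AO229 libraries above and their AO228 libraries below all scramble libraries. Of all loci, 11.1% had AO229 above and 9.36% had AO228 below all scramble libraries. The share of loci with both was not counted.

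Of the 13 factors 9 had an unadjusted p under 0.05 with AO229 higher, against 7.75% of all loci, and their median log2 difference was 0.98, against -0.09 over the AP-1 genes. In AO228 against scramble 12 of the 13 had an unadjusted p under 0.05 with AO228 lower, against 6.28% of loci, though 0 passed after adjustment, and in the same comparison 1 of the 8 AP-1 genes did. Between shCrebbp and scramble, 0 of the 13 passed in limma and 3 were lower at an unadjusted p under 0.05 (2.93% of loci), 12 had a lower mean in shCrebbp cells, and the median was -0.35 against 0.01 over all loci. Egr2, an early growth response zinc finger factor, came closest, with 48.5 ± 8.83 FPKM in shCrebbp and 97.4 ± 13.0 FPKM in scramble (SD, n = 4 each; log2 difference -0.998, limma adjusted p = 0.521). All 4 shCrebbp libraries lay below all scramble libraries for Egr2, as for Egr1 (-0.83, limma adjusted p = 0.915) and the low Ier3 (-1.07, limma adjusted p = 0.915), where 1.74% of loci were separated in this direction. No AP-1 gene was separated in this way.

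Other bZIP partners and competitors were next. Of 24 such genes 19 were tested, and 0 passed in limma between shCrebbp and scramble or between the prefixes. At an unadjusted p under 0.05, 2 of the 19 were lower in shCrebbp cells, against 2.93% of all loci. Between the prefixes 5 were lower in AO229, against 8.64% of loci, and 1 was higher, against 7.75%. Maff, a small Maf protein that pairs with AP-1 and NRF proteins, had 18.1 and 32.1 FPKM in AO229 and 17.4 and 21.3 FPKM in AO228, against 34.6, 42.9, 40.2 and 42.1 FPKM in scramble libraries. The groups did not overlap, and the log2 difference was -0.85 (SE 0.20, limma adjusted p = 0.811). Atf6 and Ddit3, factors of the endoplasmic reticulum stress response, had log2 differences of -0.37 and -0.34, each with a limma adjusted p of 0.915. Of the 19 genes 14 had a lower mean in shCrebbp cells, against 48.0% of all loci, with a median of -0.10. Between the prefixes the smallest p belonged to Jdp2, which binds Jun and represses AP-1 sites, at 1.83 FPKM in AO229 and 6.90 FPKM in AO228 (-1.50 on the log2 scale, limma adjusted p = 0.0750). Bach2 (-0.98, limma adjusted p = 0.121) and Nfil3 (-0.85, limma adjusted p = 0.152) followed, and Atf5 (-1.22), Cebpg (-0.61) and Bach1 (0.68), named after their values were seen, complete the 6 with an unadjusted p under 0.05. Bach2 competes with AP-1 at its sites in B cells.

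Batf binds composite AP-1 and IRF sites with Irf4 and Irf8, and the same IRF factors bind Ets and IRF sites with Spi1 and Spib. All 4 genes were tested. Irf4 rose in AO229 relative to AO228, with 267 and 232 FPKM in AO229 and 91.0 and 114 FPKM in AO228, and with 191, 191, 285 and 199.8 FPKM in scramble libraries (log2 difference 1.28, SE 0.24, limma adjusted p = 0.0497). Irf8 averaged 114 FPKM in AO229 and 153 FPKM in AO228 (-0.42 on the log2 scale, limma adjusted p = 0.314), and Spi1 39.3 FPKM in AO229 and 36.4 FPKM in AO228 (0.10, limma adjusted p = 0.859). Between shCrebbp and scramble 0 of 4 passed in limma, and 0 had an unadjusted p under 0.05. Spi1 (0.24), Spib (-0.18), whose locus is merged with Mybpc2 in the table, and Irf4 (-0.42) each had a limma adjusted p of 0.915.

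The MAP kinase genes that lead from surface receptors to Fos and Jun were all detected, 24 of 24. Between shCrebbp and scramble 0 passed in limma, 1 was lower and 1 higher at an unadjusted p under 0.05 (2.93% and 2.08% of all loci), 11 were lower and 13 higher in all, and the median was 0.01. Map2k3 (-0.54), Map2k6 (0.82) and Map2k4 (0.44), kinases of the p38 and JNK branches, had the smallest p, each with a limma adjusted p of 0.915. Between the prefixes 1 of 24 rose in AO229, against 0.666% of loci: Map3k1, an activator of the JNK branch, had 39.1 and 28.7 FPKM in AO229 and 12.2 and 13.6 FPKM in AO228, and 17.6 to 27.8 FPKM in scramble libraries (log2 difference 1.31, SE 0.24, limma adjusted p = 0.0468).

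The factors that act at the Fos and Jun promoters, 13 measured genes with serum response factor, its partners, Creb1 and the MEF2 factors, showed 0 limma calls in both comparisons, and 0 had an unadjusted p under 0.05. Creb1 had a log2 difference of 0.44, Mef2c of 0.21 and Mef2a of -0.29 between shCrebbp and scramble, each with a limma adjusted p of 0.915. Between the prefixes Elk1 (-0.64, limma adjusted p = 0.368), Mef2a (-0.47, limma adjusted p = 0.405) and Srf (0.42, limma adjusted p = 0.498) had the smallest p. Of 10 measured genes for decay of AP-1 mRNAs and turnover of AP-1 proteins 0 passed in limma, with 0 at an unadjusted p under 0.05 between shCrebbp and scramble and 2, both higher in AO229 (7.75% of loci), between the prefixes. Rfwd2 (0.32), Zfp36l2 (-0.48) and Itch (0.13) had the smallest p between shCrebbp and scramble, with limma adjusted p of 0.915, 0.915 and 0.922. Between the prefixes Zfp36l1 averaged 136 FPKM in AO229 and 62.9 FPKM in AO228 (1.12 on the log2 scale, limma adjusted p = 0.0712) and Zfp36 averaged 400.4 FPKM in AO229 and 208 FPKM in AO228 (0.96, limma adjusted p = 0.239). Both encode proteins that bind AU-rich elements, such as that of Fos mRNA, and speed decay. Fbxw7, a ubiquitin ligase subunit that targets Jun, stood at -0.59 (limma adjusted p = 0.354).

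Textbook AP-1 targets were read last. Of 17 genes 11 were tested, and between shCrebbp and scramble 0 passed in limma, 9 had a lower and 2 a higher mean in shCrebbp cells, and the median was -0.48 against 0.01 over all loci. Among the tested targets 4 had an unadjusted p under 0.05 with shCrebbp lower, against 2.93% of all loci. Hmox1, heme oxygenase, averaged 1.96 ± 0.946 FPKM in shCrebbp and 6.44 ± 3.21 FPKM in scramble (SD, n = 4 each; -1.28 on the log2 scale), and Il10, a suppressive cytokine, 5.96 ± 4.54 FPKM in shCrebbp and 16.2 ± 7.47 FPKM in scramble (-1.40). The inflammatory cytokine gene Tnf averaged 14.2 ± 2.66 FPKM in shCrebbp and 23.3 ± 6.48 FPKM in scramble (-0.65), and each of the 3 had a limma adjusted p of 0.915. The fourth, named after its values were seen, was Plau, the urokinase gene, at 1.54 ± 1.77 FPKM in shCrebbp and 4.53 ± 1.78 FPKM in scramble (SD, n = 4 each; -1.31, limma adjusted p = 0.915). Hmox1, Il10 and Tnf are also expressed by macrophages: of the 4 tested macrophage markers Ly6c2 had a log2 difference of -1.32, Emr1 of -1.23, Cd68 of -0.38 and Lyz2 of 0.45. None of the 4 passed after adjustment, but 2 were lower in shCrebbp cells at an unadjusted limma p under 0.05 (2.93% of all loci). Ly6c2 had 4.16 to 8.58 FPKM in shCrebbp and 12.4 to 26.3 FPKM in scramble libraries, without overlap (1.74% of loci in this direction). The part of these markers in the target values was not tested.

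Between the prefixes Plaur, the urokinase receptor, rose in AO229, with 146 and 148 FPKM in AO229 and 7.79 and 14.7 FPKM in AO228, with 38.3, 20.7, 88.1 and 79.9 FPKM in scramble libraries (log2 difference 3.66, SE 0.62, limma adjusted p = 0.0432). For Plaur too the prefixes lay on opposite sides of all 4 scramble libraries, a pattern not counted over all loci. Vim averaged 135 FPKM in AO229 and 52.7 FPKM in AO228 (1.30 on the log2 scale, limma adjusted p = 0.140).

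The 7 genes named as past the threshold between the prefixes (Atf3, Nr4a1, Klf4, Nr4a2, Irf4, Map3k1 and Plaur) rest on 2 libraries a side. Without scramble 1, scramble 3, shCrebbp 1, shCrebbp 3 or shCrebbp 4 none of the 7 passed, at adjusted p between 0.0532 and 0.324. Without shCrebbp 2 only Nr4a1 of these passed, without scramble 4 all but Irf4 and Map3k1 did, and without scramble 2 all 7 did, at adjusted p of 0.0162 to 0.0347. The macrophage markers summed to 255 and 335 FPKM in AO229 and 381 and 228 FPKM in AO228. Of the 4 tested, Emr1 was higher in both AO229 libraries (1.07 on the log2 scale), while Ly6c2 (-0.12), Cd68 (-0.05) and Lyz2 (-0.09) overlapped. The B cell markers summed to 3374 and 3159 FPKM in AO229 and 3189 and 2675 FPKM in AO228, with 5 of 8 higher and 3 lower in AO229, at log2 differences between -0.24 (Ms4a1) and 0.81 (Cd79a). No marker of either list passed, and their part in these differences was not tested.

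How the members varied together was read from their 28 pairs over the 8 libraries, on log2(FPKM + 1), with exact permutation p over all pairings of the libraries. No pair passed after adjustment over the 28, and 16 of the 28 had a positive r. Fosl2 and Atf3 had r = 0.89 (exact permutation p = 0.00479, adjusted 0.134) and rho = 0.83 (exact permutation p = 0.0154, adjusted 0.215). Without the 2 libraries farthest from the Fosl2 median, shCrebbp 1 and shCrebbp 4, their r was 0.72, and for deviations from the prefix means it was 0.84. Fosl2 and Jund had r = -0.76 (exact permutation p = 0.0404, adjusted 0.361) and rho = -0.86 (exact permutation p = 0.0107, adjusted 0.215). Their r was -0.62 without the same 2 libraries and -0.94 for deviations from prefix means. Fosb and Jun had r = 0.84 (exact permutation p = 0.0130, adjusted 0.182) and rho = 0.67 (exact permutation p = 0.0831, adjusted 0.423), but r was 0.25 without scramble 1 and shCrebbp 4, on which the relation rests. Junb and Atf3, at r = 0.69 (exact permutation p = 0.0515, adjusted 0.361), had an r of -0.29 for deviations from prefix means. Each prefix holds too few libraries for an r of its own.

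**Figure D4:**
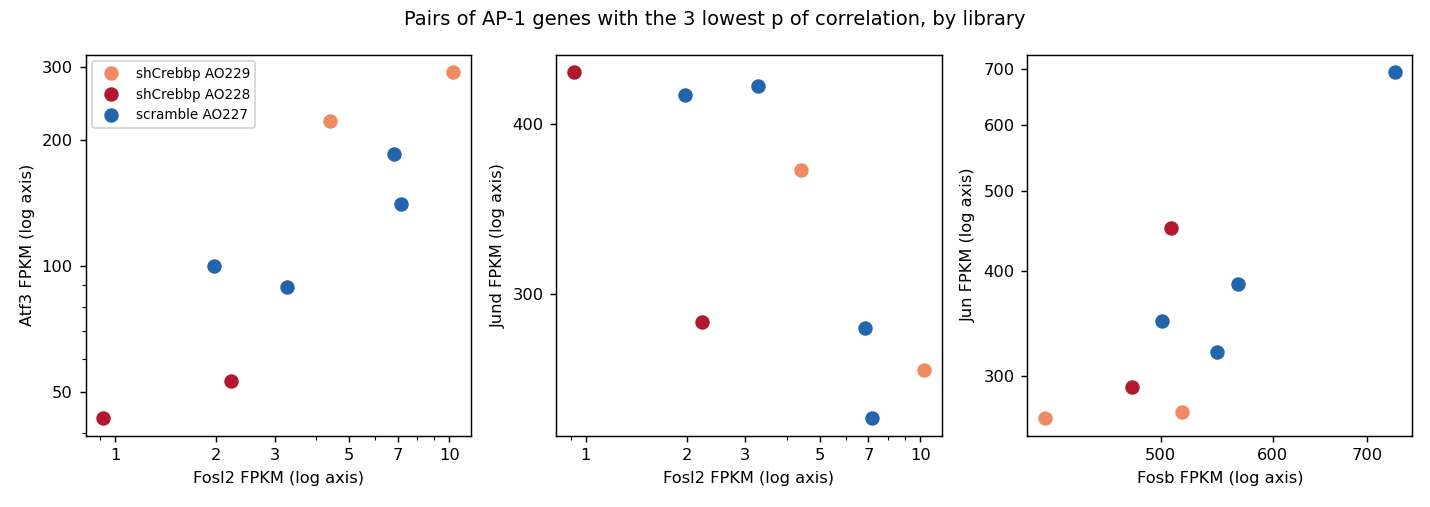
FPKM of 3 pairs of AP-1 genes in the 8 libraries, both axes logarithmic, coloured by group and prefix: Atf3 against Fosl2, Jund against Fosl2, and Jun against Fosb. The AO228 libraries, lowest in Atf3 at 43.3 and 53.2 FPKM, lie at the left of the left panel and shCrebbp 4, highest in Atf3 at 291 FPKM, at its right edge, and scramble 1, at 732 FPKM for Fosb and 694 FPKM for Jun, lies alone at the top right of the right panel.

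Across the 8 libraries each member was compared with 9886 other named loci, as a description without a test. Atf3 was most like Myl12a (r = 0.98), Nrros (0.98) and Slc38a1 (0.98), and Fosl2 most like Hilpda (0.98), Cd1d1 (0.98) and St6galnac3 (0.98). Junb was most like Sdc4 (0.95), Bin2 (0.94) and the immediate early gene Ier5 (0.93). Fos was most like Clec2d (0.93), Gtf3a (0.92) and Akr1e1 (0.91), and Fosb most like Fbxl8 (0.95), Nedd4l (0.95) and Saysd1 (0.94). Jun was most like Hyou1 (0.93), Chid1 (0.93) and Arl13b (0.92), and Jund most like Otud1 (0.94), Rcn2 (0.94) and Fam117a (0.93). Batf was most like Atcayos (0.98), Mmadhc (0.97) and Ssr3 (0.96). Atcayos had 4.98 FPKM in shCrebbp 1 and at most 1.59 FPKM in any other library. Akr1e1 had 12.5 FPKM in shCrebbp 1 and at most 4.87 FPKM elsewhere, so 1 library weighs heavily in both. The highest r among 9886 loci over 8 libraries can be large without any relation. Other members were left out of this search.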

How the data were processed

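RNA-seq of 8 libraries was analysed from 1 table. Per the labels' protocols, RNA was extracted with Trizol and libraries came from a stranded total RNA kit with ribosomal RNA depletion. The tools CASAVA 1.8, Cufflinks and TopHat2 and the build mm10 were named, per the submitters' processing notes; their roles, and whether strand entered the counting, are not given in the sources used here. The deposited values were taken as FPKM computed by the authors, a unit inferred from their pattern, since the header names none. The table holds no counts, so depth is unknown and no count model was run. It has 5 other sample columns, which were not used.

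The 11417 loci whose mean reached 1 FPKM in the 8 libraries were tested on log2(FPKM + 1) with limma 3.58.1 in R 4.3.3, with an intensity trend in the prior, two-sided, and Benjamini-Hochberg adjustment over all loci at 0.05. A log2 difference on this scale understates changes of low genes. Name prefixes entered a fit with 3 coefficients. Exact permutation tests used scipy 1.17.1 and Python 3.11.15. The limma code was tested on simulated data. The members and gene lists were chosen with earlier results of these data known. From each list, the text names genes past the threshold between shCrebbp and scramble or between AO229 and AO228, and otherwise the 3 of smallest p in each; likeness names the 3 loci of highest r. Some list genes that the rule names are not reported here. For a symbol with several loci, the one with the highest mean was used. Alternatives covered pseudocounts of 0.1 and 0.01, other filters, scalings and priors, summed loci, library weights, each prefix alone, a replicate block and each library left out. Promoter sequences are RefSeq's for GRCm38.p6.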

Additional observations from a re-analysis of the deposited data

Results flagged for a closer look

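Jun had 451 FPKM in shCrebbp 1 (AO228), which stood apart from the other 3 shCrebbp libraries, at 267 to 291 FPKM. Its gap to the nearest of them was 0.870 of the group's range, above Dixon's 95% limit of 0.829 for 4 samples. In the scramble group the corresponding share for Jun was 0.824, for scramble 1 at 694 FPKM. Chance flags about 1 in 20 groups, and 16 groups of 4 were looked at here.

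Atf3 differed between the shCrebbp prefixes, at 257 FPKM in AO229 and 48.2 FPKM in AO228 (limma adjusted p = 0.0305). Its prefixes lay on opposite sides of all scramble libraries, a pattern not counted over all loci. Batf also lay on opposite sides of its scramble mean in every library of each prefix, at 14.0 FPKM in AO229 and 20.3 FPKM in AO228, a log2 difference of -0.48 that did not pass (limma adjusted p = 0.403). Of the shCrebbp libraries only shCrebbp 1, at 24.4 FPKM, lay outside the scramble range of 12.8 to 18.4 FPKM. Prefixes without overlap were common, at 50.9% of all loci.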

How the results depend on the processing

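Of 1531 values recomputed under alternatives, 1397 kept their direction and their side of the threshold, 78 lost a call, 6 gained one and 50 changed sign; the causes were not tested. Between shCrebbp and scramble, the count of called loci (0) became 1 with AO228 as the only shCrebbp prefix and 3 with AO229, and 0 to 2 with a library left out (2 without scramble 1, 1 without shCrebbp 1). Between AO229 and AO228, the 146 called loci became 240 with a filter of 5 FPKM, 495 with library weights, 27 without a filter, 2 with a prior without trend, 243 with a robust prior, 496 at a threshold of 0.1, 11 without scramble 2 and shCrebbp 3 together, and 3 to 522 with 1 library left out (522 without scramble 2, 3 without scramble 1 or scramble 3). The 1 member called there, Atf3, became 0 without a filter, with the prior without trend, and without scramble 2 and shCrebbp 3 together, and 0 to 1 with a library left out. For AO228 against scramble, 0 became 4 without a filter, 1 with a robust prior, 1 without both libraries and 0 to 6 with a library left out. For AO229 against scramble, 2 became 23 with weights, 25 without a filter, 1 with a pseudocount of 0.01, 9 without both libraries and 2 to 60 with a library left out.

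With the number in the library name as a replicate block, 7 loci and 0 members passed between AO229 and AO228 (Atf3 2.85, adjusted p 0.0540), and Fos between shCrebbp and scramble moved to -0.025. Residuals of same-numbered libraries correlated at -0.13 to 0.13 over 4 pairs and those of other libraries at -0.20 to 0.22 over 12. These residuals also hold the difference between the shCrebbp prefixes, and only 4 pairs share a number. They cannot decide whether the numbers pair the samples.

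Member differences near 0 changed sign. Between shCrebbp and scramble, library weights moved Fos to -0.095, Fosl2 to 0.013, Atf3 to 0.39 and Batf to -0.075. AO229 alone moved Fos to -0.037, Fosl2 to 0.55, Junb to 0.18, Atf3 to 1.04, Batf to -0.13 and Irf4 to 0.22, and AO228 alone moved Jund to 0.085. Median-of-ratios scaling moved Fos to -0.00061 and quantile normalization Jund to 0.14; without scramble 2 and shCrebbp 3 Fos was -0.022 and Jund 0.055. With 1 library left out, the ranges were -0.28 to 0.26 for Fos, -0.73 to 0.12 for Fosl2, -0.37 to 0.024 for Junb, -0.16 to 0.11 for Jund, -0.62 to 0.29 for Atf3 and -0.065 to 0.21 for Batf. Between AO229 and AO228 they were -0.90 to 0.73 for Fos, -0.25 to 0.071 for Fosb and -0.48 to 0.13 for Jund. For AO228 against scramble, quantile normalization moved Fosb to 0.014 and Jun to 0.046, and the ranges were -0.77 to 0.87 for Fos, -0.52 to 0.12 for Jun and -0.22 to 0.39 for Jund. For AO229 against scramble, Junb was -0.12 without both libraries, and the ranges were -0.086 to 0.45 for Junb, -0.14 to 0.064 for Fos and -0.34 to 0.15 for Jund. Where leaving out a library left a prefix with 1, it was assumed to vary like the others. The table has no counts, so what depth limits cannot be given.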
